A study of Caenorhabditis elegans with 2 samples.

Results

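The blister (bli) genes of Caenorhabditis elegans are 6 named genes, bli-1 to bli-6, and were taken by gene symbol. The group was proposed with earlier results of these data known. Platform annotation gave 6 probes to 5 of them, bli-1, bli-2, bli-3, bli-4 and bli-5, out of 14777 genes with a value on both arrays. bli-6 was not analysed here. The measurements came from 2 spotted 2-colour microarrays. On each array, RNA of glp-4 larvae (L2, the second larval stage), taken from preparation 1 or preparation 2, was hybridised against a common reference of RNA from mixed wild-type worms. Loss of glp-4 function is known to leave worms with a strongly reduced germ line when raised warm; which allele and temperature were used here is not stated in the labels. Genotype and stage differed together between the channels and cannot be told apart. Nothing in the labels ties the preparations to separate cultures. The p-values thus reflect only how far these 2 hybridisations differed, for the gene itself and, through a prior shared over genes, for all genes. That difference may be technical.

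The nematode cuticle is a collagen matrix that the epidermis lays down anew at each molt. In the adult cuticle, an outer cortical layer and an inner basal layer are held together by collagen struts across a fluid-filled space, and mutants of the blister genes can form fluid-filled swellings where these layers separate. The family is defined by this phenotype and not by sequence: bli-1, bli-2 and bli-6 encode cuticle collagens, with bli-1 and bli-2 products found in the struts. bli-3 encodes a dual oxidase that makes hydrogen peroxide for tyrosine cross-linking of cuticle proteins. bli-4 encodes a kex2/subtilisin-like proprotein convertase that cuts precursor proteins such as procollagens, and bli-5 encodes a Kunitz-domain protein. By the RefSeq gene table of the WBcel235 assembly, bli-1 (C09G5.6) and bli-2 (F59E12.12) lie on chromosome II, bli-3 (F56C11.1) and bli-4 (K04F10.4) on I, and bli-5 (F45G2.5) on III.

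All values are log2 ratios, likely of glp-4 L2 over the mixed reference. The labels list the glp-4 RNA under channel 2 but state no dye or direction. The direction was read from descriptions that name the glp-4 sample first and from yolk and sperm genes. In the list of yolk, eggshell and major sperm protein genes, 7 of 7 were lower in glp-4 L2, with a median log2 ratio of -5.45, which is therefore no independent finding. If the direction were wrong, every sign below would turn. A ratio compares a gene with its own level in the reference and says nothing of how abundant 1 gene is beside another. Of 6 germ cell markers, 2 were lower by limma and all 6 lay below 0 on both arrays (median -2.60, from -3.11 to -1.70). Over all genes, 1.5% were lower by limma, 0.365% were higher and 30.8% lay below 0 on both arrays. Of 8 hypodermis and seam markers, the nuclear receptor gene nhr-73 was higher (3.16 ± 0.12, SD, n = 2, limma adjusted p = 0.0335), and the other 7 had means from -0.91 (lin-26) to 0.14 (elt-3) and did not pass. Among muscle, pharynx, intestine and neuron markers (4 each), the intestinal peptide transporter gene pept-1 was higher (2.76 ± 0.33, SD, n = 2, limma adjusted p = 0.0452) and the others did not pass, with list medians of -0.21, -0.36, 0.81 and 0.01. Without moderation by the prior shared over genes, 10 of all genes passed, against 275 with it, so most calls rest on that prior. In such bulk RNA, fewer cells of a type and less RNA per cell cannot be told apart.

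None of the 5 measured blister genes differed from the reference by limma with Benjamini-Hochberg adjustment over all genes at 0.05, against 1.86% of all genes (275 of 14777). At an unadjusted p under 0.05 there were 2 of 5, bli-3 and bli-4, both with means below 0, against 18.7% of all genes. By their means, bli-3 and bli-4 were at least 2-fold from the reference, 2 of 5 genes against 23.8% of all genes. None of the 5 was at least 2-fold lower on both arrays or at least 2-fold higher on both, against 7.35% and 4% of all genes. Values lay below 0 on both arrays for 2 of 5, bli-3 and bli-4, against 30.8% of all genes. The median of the 5 mean log2 ratios was -0.35, beside 0.08 over all genes. With counts this small, the 5 genes cannot be read as standing apart from the other genes.

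**Figure D1:**
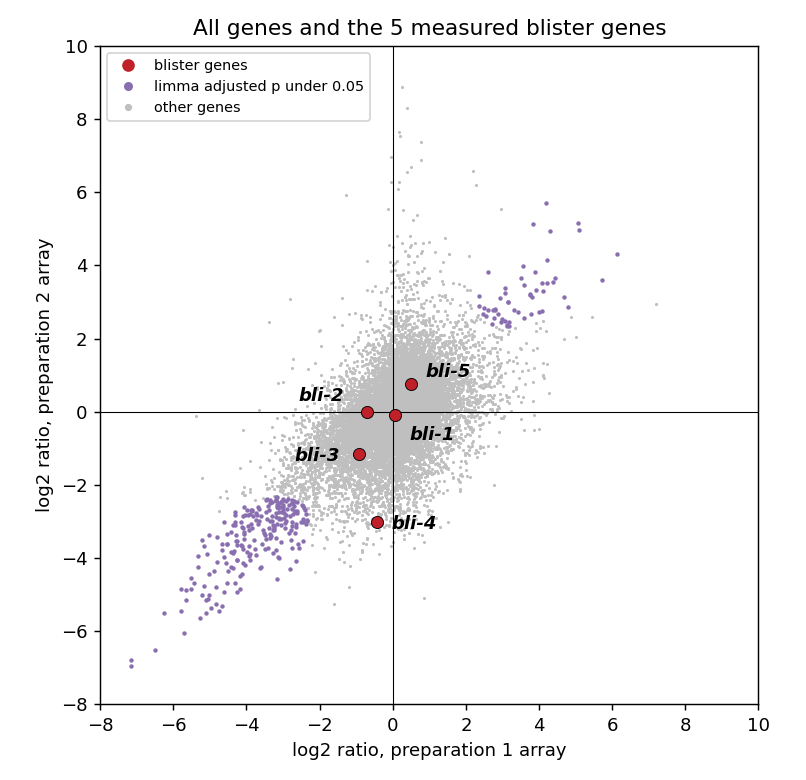
Each point is a gene, with its log2 ratio (glp-4 L2 over mixed reference) in preparation 1 on the x axis and in preparation 2 on the y axis. The 5 blister genes (red) lie among the genes that did not pass (grey) and outside both groups of genes with a limma adjusted p under 0.05 (purple), with bli-4 at -0.42 and -3.01 away from the diagonal.

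The strut collagen genes had mean ratios within 2-fold of the reference. bli-1 had log2 ratios of 0.06 in preparation 1 and -0.09 in preparation 2, that is 1.043 and 0.940 times the reference. Its values lay on either side of 0 and near the middle of all genes, 45.5% of which had a lower mean. The mean was -0.01 ± 0.11 (SD, n = 2, limma adjusted p = 0.987), and the 95% interval of the ratio ran from 0.503 to 1.95 times the reference. A change of up to about 2-fold either way is thus within the limma error of bli-1, which comes mostly from the spread shared over all genes.

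bli-2 had log2 ratios of -0.71 in preparation 1 and 0.003 in preparation 2, or 0.612 and 1.002 times the reference. The preparation 1 value was lower than the reference and the preparation 2 value close to it. The mean was -0.35 ± 0.50 (SD, n = 2, limma adjusted p = 0.667), with a 95% interval from 0.380 to 1.62 times the reference. The array values of bli-1 and bli-2 overlapped, so the data do not order the ratios of this collagen pair.

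For the dual oxidase gene bli-3, the mean over its probes was -0.91 in preparation 1 and -1.16 in preparation 2. Both lay below 0, at 0.530 and 0.449 times the reference. The mean log2 ratio was -1.04 ± 0.17 (SD, n = 2, limma adjusted p = 0.251, unadjusted p = 0.0419), which is 0.488 times the reference with a 95% interval from 0.247 to 0.963. This small SD covers the spread between arrays after averaging and leaves out the disagreement of the 2 probes.

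Probe 2783841 of bli-3 read -2.65 in preparation 1 and -1.67 in preparation 2, that is 0.159 and 0.315 times the reference. Probe 2771649, annotated to the same gene, read 0.82 and -0.65, that is 1.769 and 0.639 times the reference. Probe 2783841 was low on both arrays, whereas probe 2771649 changed sign between them. Fitted over all probes, probe 2783841 had a mean of -2.16 ± 0.70 (SD, n = 2, limma adjusted p = 0.0906) and probe 2771649 a mean of 0.09 ± 1.04 (limma adjusted p = 0.935). Neither passed, and the size of the bli-3 ratio depends on which probe is read.

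The gap between the bli-3 probes was 3.48 log2 units in preparation 1 and 1.02 in preparation 2. Over the 1345 genes with exactly 2 probes measured on both arrays, the median gap was 0.31 and 0.63 on these arrays. For the means of both arrays the bli-3 gap was 2.25, against a median of 0.42, and 35 genes had a larger one. The gap of means was wider than for 97.3% of such genes. By array, the share was 99.4% in preparation 1 and 68.8% in preparation 2, so the width of the disagreement came mainly from preparation 1.

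**Figure D2:**
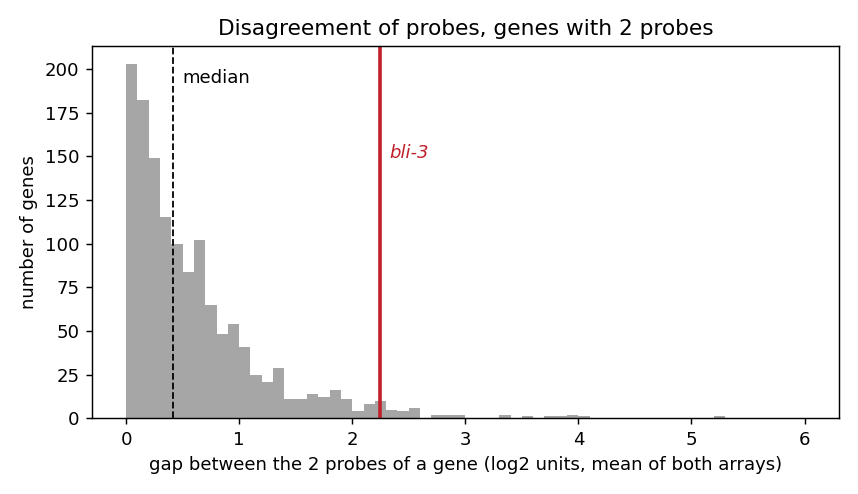
Histogram of the gap between the 2 probes of a gene, in log2 units of the mean over both arrays (x axis), by number of genes (y axis), for the 1345 genes with 2 probes. bli-3 (red line) is at 2.25 and the median (dashed line) at 0.42.

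duox-2, the other dual oxidase gene of the worm and a close copy of bli-3, lies beside it on chromosome I with 1 annotated protein-coding gene (F53G12.18) starting between them in the WBcel235 table. Probes for either gene may bind RNA of both, which was not tested, so their values are uncertain as separate measurements. duox-2 had log2 ratios of -1.38 in preparation 1 and -0.18 in preparation 2. Both lay below 0, with the preparation 1 value between those of the bli-3 probes and the preparation 2 value above both (mean -0.78 ± 0.85, SD, n = 2, limma adjusted p = 0.409).

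The convertase gene bli-4 had log2 ratios of -0.42 in preparation 1 and -3.01 in preparation 2, that is 0.746 and 0.124 times the reference. Both were below 0, but the arrays differed by 2.59 log2 units, a wider gap than for 96.7% of all genes. On the preparation 2 array 1.41% of genes were lower than bli-4, and in preparation 1 27.5% were. The mean was -1.72 ± 1.83 (SD, n = 2, limma adjusted p = 0.261, unadjusted p = 0.0471), with a 95% interval from 0.0945 to 0.979 times the reference. The lowest mean of the 5 genes thus rested mostly in preparation 2.

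The Kunitz-domain gene bli-5 was the 1 blister gene with a ratio above the reference on both arrays, against 37% of all genes. Its log2 ratios were 0.50 in preparation 1 and 0.76 in preparation 2, or 1.416 and 1.698 times the reference. The arrays lay close together and the mean was 0.63 ± 0.19 (SD, n = 2), but it did not pass (limma adjusted p = 0.424). The 95% interval ran from 0.784 to 3.07 times the reference.

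Ordered by mean log2 ratio, the genes ran bli-4, bli-3, bli-2, bli-1 and bli-5. The array values of bli-4 and bli-3 overlapped, as did those of bli-2 and bli-1, so neither pair is ordered beyond its spread. Those of bli-4 also overlapped those of bli-2. In preparation 1, bli-4 (-0.42) lay above both bli-3 (-0.91) and bli-2 (-0.71). The array values of bli-3 and bli-2 did not overlap, and neither did those of bli-1 and bli-5, with gaps of means of 0.68 and 0.65. The gap between bli-3 and bli-2 holds for the mean of the bli-3 probes and not for probe 2771649 alone, whose mean of 0.09 was above that of bli-2. With bli-3 taken as the mean of its probes, bli-5 was the highest of the 5 on each array.

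**Figure D3:**
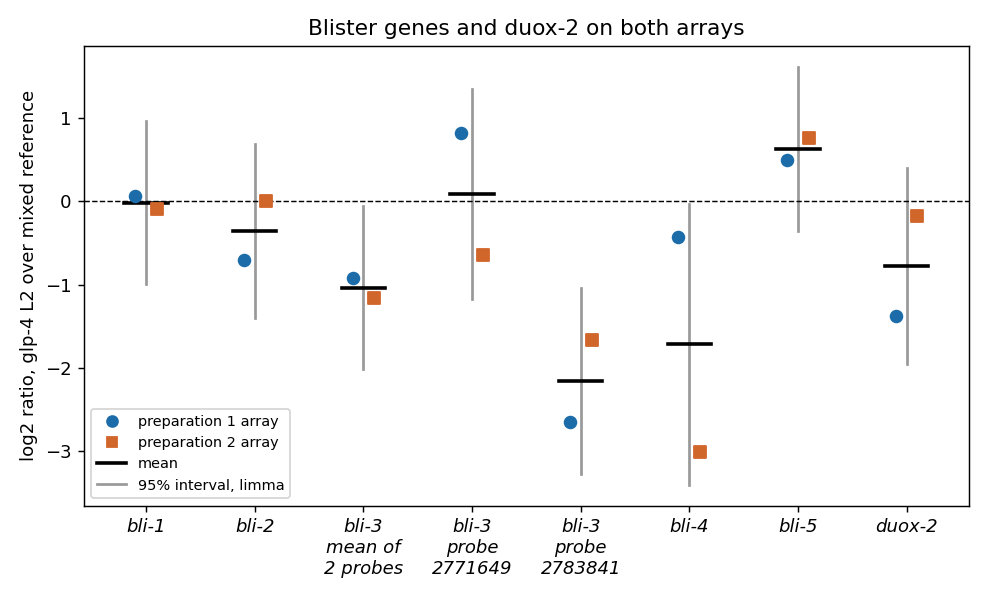
Log2 ratio of glp-4 L2 over the mixed reference (y axis) for each blister gene, the 2 probes of bli-3 and its close copy duox-2, with the preparation 1 array as circles, the preparation 2 array as squares, the mean as a black bar and the limma 95% interval as a grey line (from the fit over probes for single probes and duox-2). The bli-3 probes lie apart at means of 0.09 and -2.16, and the bli-4 arrays at -0.42 and -3.01.

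The list of dual oxidase genes, their partners and haem peroxidases, which also holds duox-2 and peroxidases not known here to act with bli-3, was mixed. Of its 11 genes, all measured, 1 was lower, 0 were higher and 10 did not pass by limma, with a median of 0.03 beside 0.08 over all genes. Lower genes made up 1.5% of all genes and higher genes 0.365%. The gene that passed was skpo-1, a haem peroxidase of the epidermis, at -3.37 in preparation 1 and -3.34 in preparation 2 (-3.35 ± 0.02 over both arrays, SD, n = 2, limma adjusted p = 0.0306). Its values nearly coincided, at 0.098 times the reference, but the call was lost without moderation by the shared prior (adjusted p = 0.555). The next lowest was memo-1, known to act on bli-3 activity (-1.02 ± 0.75), and the highest were doxa-1, the dual oxidase maturation factor (0.76 ± 1.36), and the peroxidase gene skpo-3 (1.30 ± 1.02). These 3 had limma adjusted p from 0.253 to 0.500.

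The best known partners of bli-3 are named here in addition, chosen after their values were seen. The peroxidase gene mlt-7, which acts with bli-3 in cross-linking, read 1.64 in preparation 1 and -1.82 in preparation 2 (limma adjusted p = 0.962). The tetraspanin gene tsp-15, whose product forms a complex with those of bli-3 and doxa-1, read 0.68 and 0.03 (limma adjusted p = 0.662). The signs of mlt-7 and doxa-1 differed between arrays, and none of these partners passed.

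Relatives of bli-4 and bli-5 by enzyme or domain type were few. Of the proprotein convertases, egl-3, which processes neuropeptides, read 0.19 in preparation 1 and -2.95 in preparation 2 (-1.38 ± 2.23 over both arrays, SD, n = 2, limma adjusted p = 0.385). aex-5 read 0.89 and 1.09 (0.99 ± 0.15, limma adjusted p = 0.263). Like bli-4, egl-3 was far lower in preparation 2, whereas aex-5 was above 0 on both. Of the Kunitz-domain genes, mlt-11, required for molting, had a mean of -1.22 ± 0.62 and mig-6, a papilin of the extracellular matrix, -1.77 ± 0.46 (limma adjusted p = 0.229 and 0.116). Both were below 0 on both arrays, on the other side of 0 from bli-5. The lists had 0 of 2 genes past the test each, with 1 and 2 at an unadjusted p under 0.05, and medians of -0.20 and -1.49. Over all genes, 1.86% passed and 18.7% had an unadjusted p under 0.05. The shares of all genes below and above 0 on both arrays were 30.8% and 37%. kpc-1 and conu-1 were not analysed here.

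None of 11 measured collagen-modifying and collagen-processing enzymes passed limma, and 2 had an unadjusted p under 0.05, against 18.7% of all genes. Their median was -0.05, with 0.36 in preparation 1 and -0.87 in preparation 2. The lowest were the cyclophilin gene cyn-9 (-1.26 ± 0.02) and the prolyl 4-hydroxylase subunit gene phy-2 (-1.11 ± 0.89), and the highest the protein disulfide isomerase genes pdi-6 (1.42 ± 1.13) and pdi-1 (0.59 ± 0.91). None of these 4 had a limma adjusted p under 0.192, and the highest was 0.532. The cyn-9 value averages 2 probes, which lay 1.19 log2 units apart in preparation 1 and 0.02 in preparation 2. Its small SD leaves out this gap.

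Cuticle collagens other than bli-1 and bli-2 covered a wider range, but they were far more genes, and a range grows with that number. Of 3 collagens of the adult cuticle, col-19 was lower, at -3.28 in preparation 1 and -3.10 in preparation 2 (-3.19 ± 0.13 over both arrays, SD, n = 2, limma adjusted p = 0.0325). Without moderation the col-19 call was lost (adjusted p = 0.566). Lower genes made up 1.5% of all genes. col-62 (0.08 ± 0.47) and col-7 (0.60 ± 0.20) did not pass, with limma adjusted p of 0.925 and 0.449, and the median was 0.08. The means of bli-1 (-0.01) and bli-2 (-0.35) lay between those of col-62 and col-19, and these differences were not tested.

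Collagens of the annular furrows had means mostly above the reference. None of 5 passed limma, 1 had an unadjusted p under 0.05, and the median was 0.85. dpy-2 (0.50), dpy-7 (0.85), dpy-9 (0.89) and dpy-3 (1.14) were above 0 on both arrays, against 37% of all genes, and dpy-8 was at 1.20 and -1.23. These 5 had limma adjusted p from 0.217 to 0.992. Of 10 other body-shape collagens, dpy-17 was lower (-3.07 ± 0.16, SD, n = 2, limma adjusted p = 0.0356), 0 were higher and 9 did not pass, and 5 had an unadjusted p under 0.05 (dpy-17 below the reference, and lon-3, sqt-1, dpy-13 and dpy-5 above it) against 18.7% of all genes. lon-3 and sqt-1 are named here after their values were seen. The list had a median of 1.31 that was 2.25 in preparation 1 and 0.02 in preparation 2. dpy-5 (2.40 ± 1.08) and dpy-13 (2.36 ± 1.47) had the highest means and rol-8 the lowest after dpy-17 (-1.16 ± 1.92), at limma adjusted p of 0.0945, 0.131 and 0.411. After quantile normalization dpy-5 passed (limma adjusted p = 0.0436). Without moderation by the shared prior, the dpy-17 call was lost (adjusted p = 0.576). Of 132 genes named col, 17 were lower, 5 higher and 110 did not pass, with a median of 0.44, and 74 had an unadjusted p under 0.05. Over all genes, 1.5% were lower, 0.365% higher and 18.7% at an unadjusted p under 0.05. None of the 5 blister genes reached the size of the col-19 and dpy-17 means.

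None of 14 molting genes passed limma, and 4 had an unadjusted p under 0.05, against 18.7% of all genes. Their median was 0.17 (1.04 in preparation 1, -0.43 in preparation 2). The lowest were lrp-1, an endocytic receptor of the epidermis (-2.40 ± 0.93), and the zona pellucida matrix gene noah-1 (-2.29 ± 0.76), at limma adjusted p of 0.0828 and 0.0812. After quantile normalization lrp-1 and noah-1 passed (limma adjusted p = 0.0436 and 0.0447). The highest were the astacin protease gene nas-36 (1.62 ± 1.63) and the hedgehog-related gene qua-1 (0.86 ± 1.89), at limma adjusted p of 0.257 and 0.528. Every cuticle-related list and marker list had a higher median in preparation 1, as did all genes together (0.10 and 0.02 in preparation 2). Of the blister genes, bli-1, bli-3 and bli-4 had higher values in preparation 1, and bli-2 and bli-5 ran the other way. The blister median was -0.42 in preparation 1 (the bli-4 value) and -0.09 in preparation 2 (the bli-1 value). As these are different genes, the medians do not show a shift of the group between arrays. let-268, dpy-10, dpy-14 and mlt-10, also in the cuticle-related lists, were not analysed here.

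**Figure D4:**
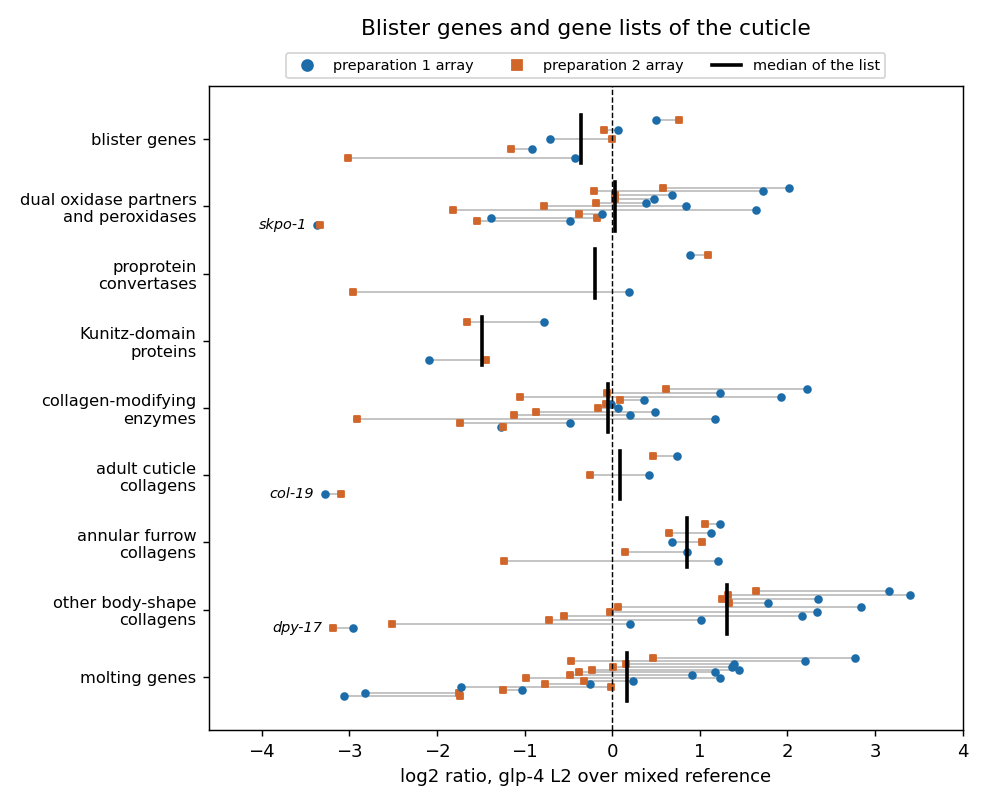
Log2 ratio of glp-4 L2 over the mixed reference (x axis) for every measured gene of the blister group and of 8 cuticle-related lists (rows; the 132 col genes are not drawn as a list), with circles for the preparation 1 array and squares for the preparation 2 array joined by a line, and a black bar at the median of each list. The named genes skpo-1, col-19 and dpy-17, between -3.37 and -2.95, are the ones drawn with a limma adjusted p under 0.05, and no blister gene is among them.

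The genes whose pair of ratios lay nearest to each blister gene, by Euclidean distance over the 2 arrays among 8867 other genes with a gene name, were as follows. For bli-1 they were nhr-6, ech-3 and str-15, and for bli-2 aqp-3, txbp-3 and fbxb-66. For bli-3 (mean of probes) they were fbxa-218, pals-22 and lipl-1, and for bli-5 str-240, clec-153 and npr-13. All of these lay at 0.0434 log2 units or less. Over 2 arrays such closeness is common: 59 named genes lay within 0.1 of bli-1, 50 of bli-5, 31 of bli-2 and 14 of bli-3. bli-4 was the exception, with 1 gene within 0.1 (spp-5 at 0.0745), followed by dpf-3 at 0.142 and smcr-8 at 0.148. No blister gene was among the nearest 3 of another. Among 8867 candidates the nearest 3 would seldom hold any given gene, so this says little of how alike the blister genes are.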

How the data were processed

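The authors' deposited table holds a value for each probe on each array, taken here as a log2 ratio between channels. The log2 base was inferred from the deposited values: raising 2 to them gave multiples of 0.001, to within 0.002 of a step, for 99.1% of values in preparation 1 and 98.8% in preparation 2. Background correction and scaling are not stated. The table has no intensities, so how far a signal stood above background was not known, and the number of arrays limits the precision. Platform annotation named exactly 1 gene for 16450 of 21632 probes, several for 247 and none for 4935, and gene symbols were brought up to date from the RefSeq table, where 16360 of the 16450 probes matched on Entrez ID. Where a gene had several probes, their mean on each array was used.

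Values were used as deposited. For each of 14777 genes, limma 3.58.1 (R 4.3.3; lmFit with only an intercept, then eBayes) tested the mean against 0, with Benjamini-Hochberg adjustment over all of them and a threshold of 0.05. There is 1 residual degree of freedom for a gene, and the shared prior adds 4.52. The reference is a single control RNA, so the test leaves out its spread, and without swapped dyes any dye bias remains. Over genes, the median log2 ratio was 0.10 in preparation 1 and 0.02 in preparation 2. Pearson's r between the arrays was 0.529 across genes, which are not independent replicates, and the arrays share the reference. On simulated data with 200 changed genes the test found few changes of 2 log2 units. More of its calls were false than the 0.05 threshold aims for. All 5 blister means were smaller than 2 log2 units in size. A blister gene that did not pass may thus still differ from the reference. Members and lists were chosen with earlier results of these data known. From lists with over 8 measured genes the 2 highest and 2 lowest means are named, from shorter ones all genes, and for each blister gene the 3 nearest named genes. Alternatives were centring, quantile normalization, limited ratios, the median over probes, single probes, a test without moderation, a robust prior, the turned sign and leaving out each array.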

Additional observations from a re-analysis of the deposited data

How the results depend on the processing

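No blister gene passed under any alternative with a test, over which the lowest limma adjusted p was 0.169 (bli-4, quantile normalization) for gene means and 0.0906 for a single probe (2783841, of bli-3). Of these alternatives, turning the sign cannot change a p-value, and the median over probes leaves every blister gene's mean as it was. The count of genes past the test over all genes was 275 (221 lower, 54 higher). It was 467 (377 lower, 90 higher) with each array centred, 605 (447 and 158) after quantile normalization, 140 (115 and 25) with ratios limited to 5, and 10 (7 and 3) without moderation. Under that last test skpo-1, col-19 and dpy-17 no longer passed (adjusted p from 0.555 to 0.576). Centring moved the median of all genes by 0.10 on the preparation 1 array and turned no blister gene's mean. Counts of genes below 0 on both arrays do depend on it, for the blister genes and for all genes. The bli-1 value in preparation 1 (0.06) and the bli-2 value in preparation 2 (0.003) lay above 0 but under the median of their array (0.10 and 0.02). With centring, bli-1 and bli-2 would also lie below 0 on both arrays. Turning the sign gave means of 0.014 for bli-1, 0.35 for bli-2, 1.04 for bli-3, 1.72 for bli-4 and -0.63 for bli-5. Read from probe 2771649 alone, bli-3 was at 0.088, against -1.04 over both probes. The mean of dpy-8 was 0.043 after quantile normalization, against -0.016 as reported. Leaving out either array left 1 array and a value with no test, from -0.09 to 0.06 for bli-1, -0.71 to 0.003 for bli-2, -1.16 to -0.91 for bli-3, -3.01 to -0.42 for bli-4 and 0.50 to 0.76 for bli-5. No count of genes past the test exists for 1 array. The cause of these changes was not tested. No paired analysis was possible because the design has 1 group, measured against a common reference.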
